A study of Homo sapiens with 15 samples.

Results

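The unfolded protein response and endoplasmic reticulum (ER) folding genes described here are 37 protein-coding genes picked by symbol from the gene count table. They were chosen with earlier results of these data known, so their shares beside those of all genes are descriptive. All 37 were found among 58780 gene rows, and all 37 were among the 24659 genes with enough counts to be tested. Their levels were measured by RNA sequencing in atrial cardiomyocytes made from H7, an established human embryonic stem cell line, labelled as wild type. There were 5 groups of 3 libraries, all from the same differentiation protocol, in which retinoids direct the cells to the atrial fate and the cell clusters are dissociated on day 17. The first group received siRNA-1 and the second siRNA-2, each directed against ATRNL1 (attractin-like 1, a membrane protein), and both were compared with cells given a scramble siRNA. Another group received a lentiviral vector with the short ATRNL1 isoform and was compared with cells given a control lentivirus. Puromycin selection followed the overexpression lentivirus. The sources used here give neither the days of treatment and harvest nor the promoter of the vector. Nothing says that the libraries of a group came from separate cultures, so a p-value here reflects the spread between these libraries alone, and that spread could be technical.

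The ER folds proteins bound for membranes and secretion, and heart muscle cells rely on it for ion channels, receptors and secreted peptides. When unfolded proteins accumulate, 3 sensors in the ER membrane respond. ATF6 is cut in the Golgi and its freed part raises chaperone genes, IRE1 (gene ERN1) splices the XBP1 mRNA so that it encodes an active factor that raises secretory and degradation genes, and PERK (gene EIF2AK3) slows translation and raises ATF4 targets. The genes were sorted by these branches into 14 ATF6-type chaperones and folding enzymes, 10 IRE1-XBP1 type co-chaperones and degradation genes, 7 IRE1-XBP1 type translocation and secretion genes, and 6 sensors, transcription factors and WFS1. The branches overlap in cells, and gene counts cannot show XBP1 splicing, ATF6 cleavage or PERK activity.

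Total counts ran from 37078568 to 108663135 per library. ATRNL1 had 10.2, 9.02 and 8.26 counts scaled to library size (CPM) with siRNA-1 and 4.93, 5.41 and 4.61 CPM with siRNA-2, against 16.9, 13.8 and 15.3 CPM with scramble. It had 636, 927 and 727 CPM with the ATRNL1 lentivirus, against 29.2, 27.6 and 27.1 CPM with the control lentivirus. All 12 cardiomyocyte markers were detected, with 39810 to 54246 CPM summed over the list. The atrial markers NR2F1 and SLN stayed under 1 CPM in every library, as did 5 of 6 pluripotent cell markers and 6 of 7 endothelial markers. Fewer cells of a type and less RNA per cell cannot be told apart in bulk RNA.

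In each group 1 library lay between the other 2 more often than they did, by a small margin with siRNA-2. Scramble library 3 lay between scramble libraries 1 and 2 for 74.4% of the 7258 genes with a mean of 20 CPM or more, and for 36 of the 37 genes described here. Where scramble libraries 1 and 2 differed by at least 0.5 on the log2 scale, this held for 100% of 439 genes, and the median position was 0.50 of the way from library 1 to library 2 in linear CPM (quartiles 0.46 and 0.53). The libraries most often between the others were library 2 of siRNA-1 (52.3% of genes), library 2 of siRNA-2 (40.4%), library 3 of the ATRNL1 lentivirus (51.6%) and library 2 of the control lentivirus (57.4%). Libraries 1 and 3 of siRNA-2 lay between their others for 30.2% and 29.4% of genes. For genes with such a 0.5 gap, the ATRNL1 lentivirus library 3 had a median position of 0.35 from library 1 to library 2 (quartiles 0.19 and 0.52). In the 4 groups other than scramble the labels name 1 sample by joining the numbers of the other 2, while the scramble samples are numbered 1 to 3. The labels do not say what that means, and whether these libraries share material with the others was not tested. Counts of genes called are therefore given with all libraries and without the 5 most often between. These are named midpoint libraries below, although not all of them lay near a midpoint.

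RefSeq start-site windows (GRCh38.p14, 250 bases before to 50 after each start) were available for 33 of the 37 genes. The ER stress element ERSE, the site of ATF6 with NF-Y, was searched on both strands as CCAAT, 9 free bases and CCACG, ERSE-II as ATTGG, 1 free base and CCACG, and the XBP1 site UPRE as TGACGTGG. ERSE was found in 7 of 33 genes (21.2%), of which 6 are chaperones or folding enzymes and 1 is XBP1, and in 25 of all 27305 genes with a window (0.0916%). ERSE-II was found in 3 of 33 (SDF2L1, HERPUD1 and HYOU1), against 19 of all genes (0.0696%), and UPRE in HYOU1 alone, where it overlaps an ERSE-II match, against 253 of all genes (0.927%). A match describes letters in the window and is not evidence of binding. The 37 genes were picked as genes of this response, so their share beside that of all genes describes the windows and tests nothing. The windows below show the bases upstream of the start, outside annotated exons, with the 19 bases of ERSE in capitals. They are given to show the element in the genes that hold it, with ATF6 as a sensor whose window holds none. ERSE was found in 0 of 8 co-chaperone and degradation genes with a window and in 0 of 6 translocation and secretion genes. ERSE-II was found in 1 of those 8 (HERPUD1) and in 0 of those 6. Only exact matches within these windows were searched.
HSPA5, chr9:125241344-125241493, minus strand: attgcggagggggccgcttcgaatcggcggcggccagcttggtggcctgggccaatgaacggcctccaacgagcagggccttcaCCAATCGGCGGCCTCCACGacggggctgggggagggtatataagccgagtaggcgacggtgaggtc
CRELD2, chr22:49918484-49918633, plus strand: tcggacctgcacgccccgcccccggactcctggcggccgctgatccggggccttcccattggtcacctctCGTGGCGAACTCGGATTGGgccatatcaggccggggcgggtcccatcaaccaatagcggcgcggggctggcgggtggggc
PDIA6, chr2:10812845-10812935, minus strand: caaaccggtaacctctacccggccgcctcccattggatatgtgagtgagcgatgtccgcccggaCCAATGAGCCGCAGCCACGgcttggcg
CALR, chr19:12938374-12938577, plus strand: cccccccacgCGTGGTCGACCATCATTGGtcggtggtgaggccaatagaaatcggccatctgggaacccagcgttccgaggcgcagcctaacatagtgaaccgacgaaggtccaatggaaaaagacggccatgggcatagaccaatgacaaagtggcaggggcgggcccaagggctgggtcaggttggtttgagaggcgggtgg
XBP1, chr22:28800598-28800719, minus strand: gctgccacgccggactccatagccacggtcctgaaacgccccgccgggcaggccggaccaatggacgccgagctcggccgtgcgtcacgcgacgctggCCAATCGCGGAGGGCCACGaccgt
ATF6, chr1:161766160-161766293, plus strand: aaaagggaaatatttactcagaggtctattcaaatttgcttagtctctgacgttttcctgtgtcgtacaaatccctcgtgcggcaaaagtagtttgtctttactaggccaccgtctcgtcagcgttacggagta
In CRELD2 and CALR the match is on the strand opposite to the gene. In HSPA5 its last base lies 48 bases before the RefSeq start, and in XBP1 34 bases before it. HSP90B1 holds 2 matches, which are shown as elements because an exon of another transcript covers them. The SDF2L1, HERPUD1 and HYOU1 elements are shown beside them as the genes that hold ERSE-II, and lower-case bases are those the pattern leaves free.
HSP90B1, chr12:103930216-103930234, ERSE: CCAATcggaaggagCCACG
HSP90B1, chr12:103930321-103930339, ERSE, opposite strand: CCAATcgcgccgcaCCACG
SDF2L1, chr22:21642114-21642124, ERSE-II, opposite strand: ATTGGtCCACG
HERPUD1, chr16:56932025-56932035, ERSE-II: ATTGGgCCACG
HYOU1, chr11:119057380-119057390, 1 of 2 ERSE-II matches, opposite strand: ATTGGaCCACG

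Levels per exon length, as TPM, covered a wide range. In scramble cells the most abundant of the 37 was HSPA5, the main ER chaperone (also called BiP), at 1620.3 ± 674 TPM (SD, n = 3), followed by HSP90B1, the ER member of the HSP90 family, at 1238 ± 554 TPM. The lectin chaperones CANX and CALR, which bind folding glycoproteins, were at 1006 ± 191 and 978 ± 271 TPM. Each of these 4 differed from its neighbour in the order by less than the larger of their SDs, whereas DNAJB9, next at 322 ± 114 TPM, lay apart from CALR by more than both SDs. DERL3, a channel component of ER-associated degradation, was the lowest at 1.27 ± 0.46 TPM. Of the sensors, ATF6 stood at 44.2 ± 2.97 TPM, EIF2AK3 at 19.8 ± 0.22 TPM and ERN1 at 4.63 ± 0.28 TPM, so the levels of the 3 sensors in scramble cells were apart by more than their spread.

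**Figure D1:**
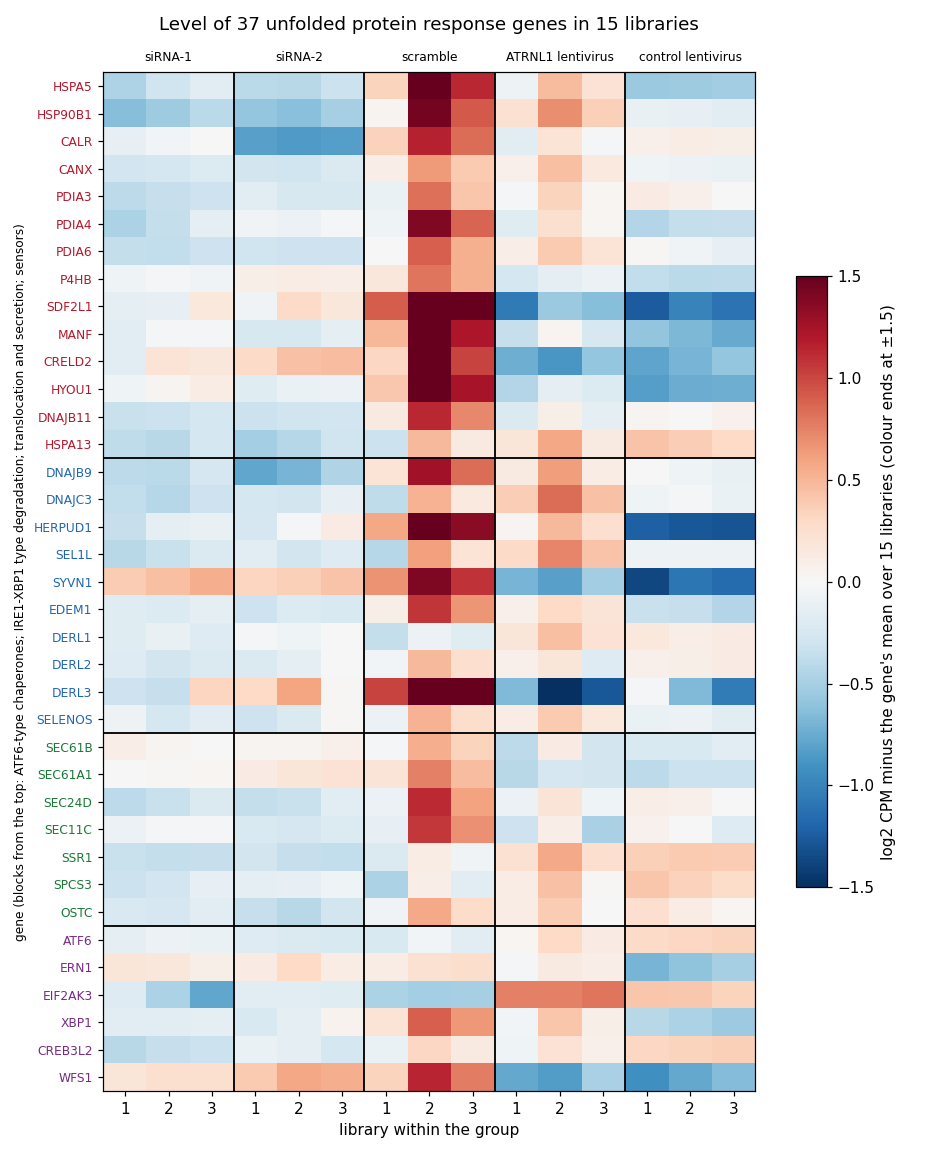
Level of each of the 37 genes (rows, sorted by branch) in each of the 15 libraries (columns, by group), as log2 CPM minus the gene's mean over the 15 libraries. Scramble library 2 is the highest scramble column for 35 of the 37 genes and scramble library 1 the lowest for 36.

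The scramble libraries did not share 1 level of these genes. The 37 genes together took 0.607% of all counts in scramble library 1, 1.21% in library 2 and 0.912% in library 3, against 0.449% to 0.525% with siRNA-1 and 0.488% to 0.514% with siRNA-2. Library 2 was the highest scramble library for 35 of the 37 genes and library 1 the lowest for 36 of them. The order library 1, library 3, library 2 from low to high was found in 35 of 37 genes, and in 28.2% of all genes tested. Library 2 exceeded library 1 by a median of 1.09 on the log2 scale for the chaperones, 0.94 for the co-chaperones and degradation genes, 0.58 for translocation and secretion genes and 0.29 for the sensors and transcription factors, with a median of 0.00 over all genes tested. The widest gap was in SDF2L1, a partner of the HSPA5 co-chaperones, at 1.62, and EIF2AK3 ran the other way at -0.04.

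**Figure D2:**
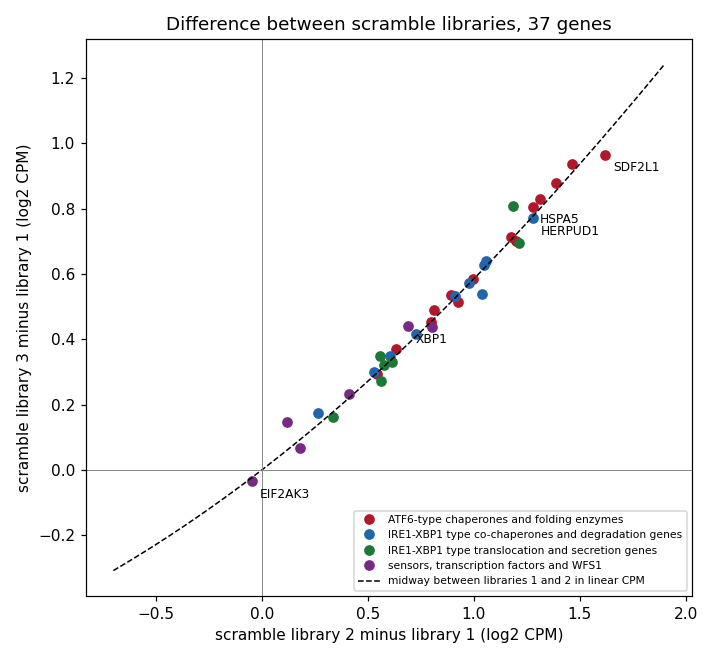
Difference of scramble library 2 (x axis) and library 3 (y axis) from scramble library 1 in log2 CPM, 1 point per gene, coloured by branch. The points lie near the dashed line, which marks values midway between libraries 1 and 2, and the chaperones reach furthest to the right.

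The median SD of log2 CPM over the 37 genes was 0.06 with siRNA-1, 0.05 with siRNA-2 and 0.41 with scramble, and 0.19 with the ATRNL1 lentivirus and 0.05 with the control lentivirus. Over all genes tested the median SD was 0.14 with siRNA-1, 0.12 with siRNA-2 and 0.16 with scramble, and 0.20 with the ATRNL1 lentivirus and 0.14 with the control lentivirus. An SD above 0.3 was found in 26 of the 37 genes in scramble. Among genes with a mean of 20 CPM or more this held for 21 of 31 of them, and for 3.73% of all such genes. Other lists moved across the scramble libraries too. Cell cycle genes summed to 559, 364 and 467 CPM in scramble libraries 1, 2 and 3, fibroblast markers to 232, 164 and 205 CPM, smooth muscle and pericyte markers to 498, 330 and 416 CPM and cardiomyocyte markers to 50462, 39810 and 45494 CPM. Mitochondrial transcripts took 6.33%, 6.79% and 6.32% of counts. Their part in the levels of the 37 genes was not tested.

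The comparison of each siRNA with scramble asked how these genes differed where ATRNL1 was lowered, and fell or rose here means lower or higher than scramble. As mean log2 CPM over the 37 genes, scramble was the highest of the 5 groups at 6.49 (SD 0.42). It was 5.80 with siRNA-1, 5.83 with siRNA-2, 5.74 with the control lentivirus and 5.98 with the ATRNL1 lentivirus. How far the level of scramble itself accounts for the differences was not tested. With siRNA-1, 31 of the 37 genes fell and none rose, against 3.76% of all genes tested that were lower and 5.85% that were higher. With siRNA-2, 28 of the 37 fell and 1 (EIF2AK3) rose, against 8.48% lower and 9.64% higher of all genes tested. Of the 37, 31 had a mean of 20 CPM or more. Among all 7258 genes at that level, 533 were lower and 678 higher with siRNA-1, and 1387 were lower and 874 higher with siRNA-2. All 14 chaperones and folding enzymes fell with both siRNAs. The median log2 fold change of the 37 was -0.64 with siRNA-1 and -0.65 with siRNA-2, against -0.01 and 0.00 over all genes tested. The 2 comparisons share the scramble libraries and are not independent. The test used 1 spread per gene for all 5 groups. For the 37 genes the median SD was 0.41 with scramble, 0.06 with siRNA-1 and 0.05 with siRNA-2. The wider scramble spread is thus only partly reflected in the standard errors and adjusted p-values given for the siRNAs. Of 8 fibroblast markers 0 fell and 3 rose with each siRNA (medians 0.31 with siRNA-1 and 0.30 with siRNA-2), with summed levels of 222 to 244 CPM with siRNA-1 and 218 to 232 CPM with siRNA-2, against 164 to 232 CPM with scramble. Of 12 cell cycle genes 0 fell and 3 rose with each siRNA, with sums of 549 to 554 CPM with siRNA-1 and 471 to 483 CPM with siRNA-2, against 364 to 559 CPM with scramble. Of the smooth muscle and pericyte markers 1 fell and 1 rose with siRNA-1, and 0 fell and 2 rose with siRNA-2. The part of these lists in the changes of the 37 genes was not tested. All siRNA-1 libraries lay below all scramble libraries in 26 of the 37 genes (28.8% of all genes tested had groups that did not overlap in either direction), and all siRNA-2 libraries in 21 of them (36.7%).

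How many genes were called depended on the scramble libraries. With scramble library 1 as the sole control, 8 genes fell with siRNA-1 and 11 with siRNA-2 (0.89% and 3.62% of all genes tested were lower). With library 2 alone 32 fell with either siRNA (3.1% of all genes tested were lower with siRNA-1 and 5.58% with siRNA-2). With library 3 alone 30 fell with siRNA-1 and 26 with siRNA-2 (1.26% and 3.73% of all genes tested). In these fits the lone library is assumed to vary like the other groups. Without the 5 midpoint libraries, which leaves 2 per group, 16 genes fell with siRNA-1 and 16 with siRNA-2 (0.543% and 2.23% of all genes tested were lower), with median log2 fold changes of -0.64 and -0.64. HSPA5, HSP90B1, SDF2L1, MANF, HERPUD1, DNAJB9, DNAJB11 and CALR were called with both siRNAs in each of these alternatives.

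**Figure D3:**
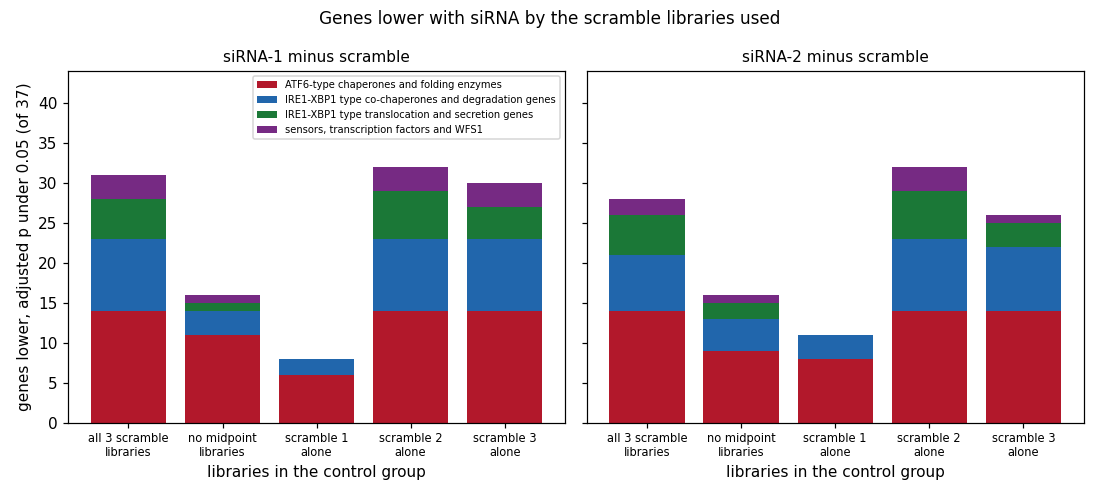
Number of the 37 genes called lower (bars, stacked by branch) with siRNA-1 (left) and siRNA-2 (right), by which scramble libraries formed the control. The bars are shortest with scramble library 1 alone, at 8 and 11 genes, and hold only chaperones, co-chaperones and degradation genes there.

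Chaperones and folding enzymes had a median log2 fold change of -0.99 with siRNA-1 and -0.96 with siRNA-2. HSPA5 (chr9:125234853-125241330, minus strand; gene positions are those of GENCODE 29 on GRCh38) had 523, 585 and 640 CPM with siRNA-1 and 545, 539 and 576 CPM with siRNA-2, against 905, 2193 and 1583 CPM with scramble. Every siRNA library lay below the lowest scramble library. The log2 fold change was -1.42 with siRNA-1 (SE 0.18, adjusted p = 7.14e-06) and -1.496 with siRNA-2 (SE 0.18, adjusted p = 1.09e-06), and -0.64 with siRNA-1 and -0.72 with siRNA-2 against scramble library 1 alone. HSP90B1 (chr12:103930107-103953645) had 490.0, 530.1 and 577 CPM with siRNA-1 and 511, 498 and 543 CPM with siRNA-2, against 787, 2062 and 1446 CPM with scramble. It changed by -1.43 on the log2 scale with siRNA-1 (SE 0.19, adjusted p = 1.13e-05) and -1.47 with siRNA-2 (SE 0.19, adjusted p = 2.52e-06), with no overlap between the groups.

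SDF2L1 (chr22:21642261-21644298) changed most among the 37 with either siRNA, at a low level. It had 2.43, 2.43 and 2.98 CPM with siRNA-1 and 2.56, 3.24 and 3.00 CPM with siRNA-2, against 5.02, 15.5 and 9.83 CPM with scramble. Its log2 fold change was -1.96 with siRNA-1 (SE 0.24, adjusted p = 5.96e-06) and -1.80 with siRNA-2 (SE 0.23, adjusted p = 3.44e-06). MANF, a protein that binds HSPA5 and can be secreted (chr3:51385047-51389397), had 47.0, 52.4 and 51.9 CPM with siRNA-1 and 44.7, 44.7 and 48.1 CPM with siRNA-2, against 74.9, 169 and 123 CPM with scramble. All 6 siRNA libraries were below every scramble library, and MANF changed by -1.28 with siRNA-1 (SE 0.16, adjusted p = 6.99e-06) and -1.42 with siRNA-2 (SE 0.16, adjusted p = 5.03e-07). HYOU1, which releases ADP from HSPA5 (chr11:119044189-119057202), had 98.3, 106 and 111 CPM with siRNA-1 and 90.4, 95.8 and 96.8 CPM with siRNA-2, against 136, 338 and 241 CPM with scramble. It changed by -1.18 with siRNA-1 (SE 0.17, adjusted p = 4.01e-05) and -1.34 with siRNA-2 (SE 0.17, adjusted p = 2.62e-06), and the siRNA-1 call was lost against scramble library 1 alone, at -0.37 (adjusted p = 0.0593).

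The disulfide isomerases form and rearrange disulfide bonds in folding proteins. PDIA4 changed by -1.17 with siRNA-1 and -0.91 with siRNA-2, PDIA6 by -0.87 with siRNA-1 and -0.83 with siRNA-2, PDIA3 by -0.78 with siRNA-1 and -0.65 with siRNA-2, and P4HB by -0.57 with siRNA-1 and -0.42 with siRNA-2, and all 4 were called with both siRNAs. Against scramble library 1 alone none of these 4 was called, and the value of PDIA4 with siRNA-2 was 0.00. The libraries of PDIA4 had 77.3, 84.0 and 97.4 CPM with siRNA-1 and 103, 101 and 106 CPM with siRNA-2, against 102, 282 and 196 CPM with scramble. The siRNA-2 values overlapped scramble library 1. CANX changed by -0.64 with siRNA-1 and -0.66 with siRNA-2, CRELD2 by -0.95 with siRNA-1 and -0.64 with siRNA-2, DNAJB11, an HSPA5 co-chaperone, by -1.02 with siRNA-1 and -1.02 with siRNA-2, and HSPA13 by -0.49 with siRNA-1 and -0.55 with siRNA-2, each called with both siRNAs.

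**Figure D4:**
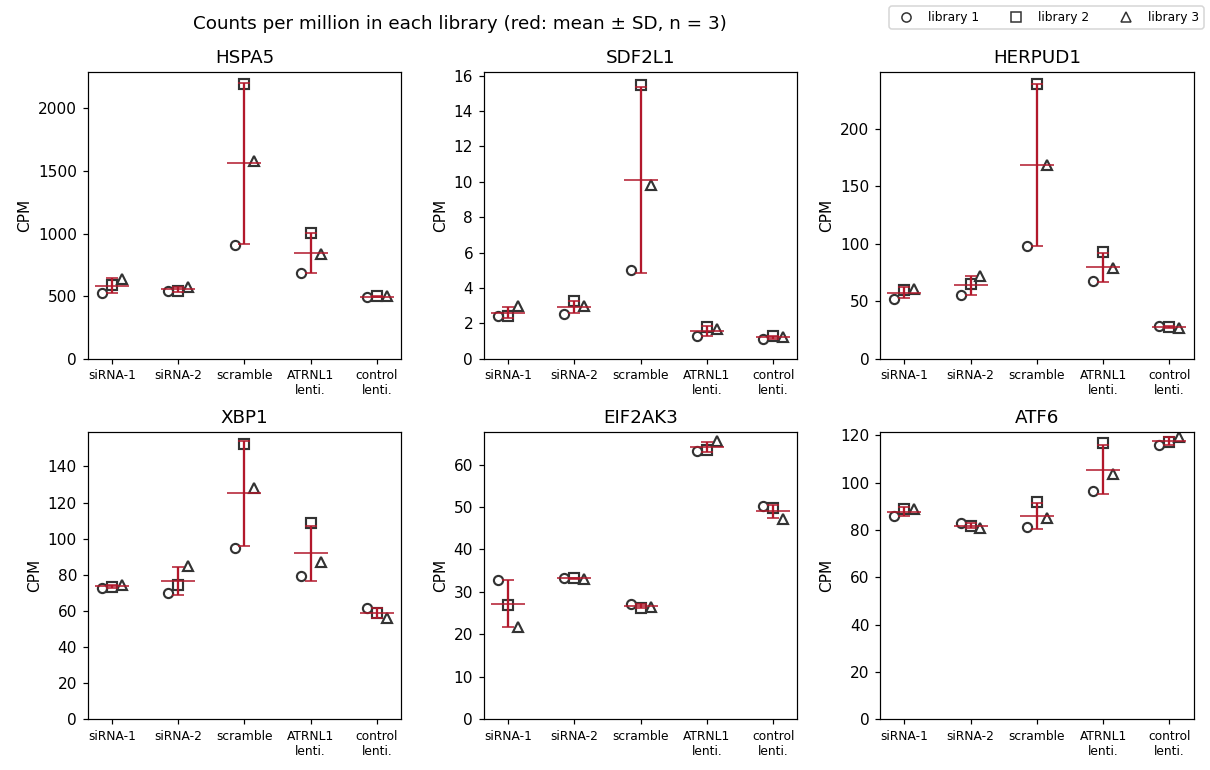
CPM of 6 of the genes in every library (open symbols) with the group mean and SD in red, n = 3. HSPA5, SDF2L1, HERPUD1 and XBP1 are spread widely across the scramble libraries with library 2 on top, whereas EIF2AK3 and ATF6 are not.

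CALR (chr19:12938578-12944489) set the siRNAs apart. It had 342, 360.5 and 375 CPM with siRNA-1 and 212, 207 and 210.1 CPM with siRNA-2, against 471, 829 and 663 CPM with scramble. The log2 fold change was -0.87 with siRNA-1 (SE 0.12, adjusted p = 2.83e-05) and -1.64 with siRNA-2 (SE 0.12, adjusted p = 1.39e-09). The libraries of the 2 siRNAs did not overlap.

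Co-chaperones and degradation genes fell in 9 of 10 cases with siRNA-1 and in 7 of 10 with siRNA-2. HERPUD1, a membrane component of ER-associated degradation (chr16:56932048-56944863), had 51.9, 60.0 and 61.0 CPM with siRNA-1 and 55.2, 64.8 and 72.0 CPM with siRNA-2, against 98.6, 239 and 168 CPM with scramble. It changed by -1.55 with siRNA-1 (SE 0.18, adjusted p = 2.27e-06) and -1.40 with siRNA-2 (SE 0.18, adjusted p = 2.52e-06). No siRNA library reached the lowest scramble library. DNAJB9, a J-domain co-chaperone of HSPA5 (chr7:108569568-108574850), had 96.2, 95.7 and 106 CPM with siRNA-1 and 73.5, 77.8 and 92.3 CPM with siRNA-2, against 145, 303 and 226 CPM with scramble. It changed by -1.18 with siRNA-1 (SE 0.16, adjusted p = 2.00e-05) and -1.47 with siRNA-2 (SE 0.16, adjusted p = 3.30e-07). EDEM1, which marks misfolded glycoproteins for disposal, changed by -0.84 with siRNA-1 and -0.91 with siRNA-2, and SYVN1, the ubiquitin ligase of this pathway, by -0.63 with siRNA-1 and -0.71 with siRNA-2.

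SEL1L, the adaptor of SYVN1, and DNAJC3, a co-chaperone that also inhibits PERK, were called with siRNA-1 (-0.51 for SEL1L and -0.52 for DNAJC3) and not with siRNA-2 (-0.41 for SEL1L and -0.36 for DNAJC3). Whether the siRNAs differed in these was tested directly and the differences of -0.11 and -0.15 were not called. SEL1L had 144, 153 and 166 CPM with siRNA-1 and 171, 159 and 169 CPM with siRNA-2, against 143, 297 and 222 CPM with scramble, and so overlapped scramble library 1. DERL3 changed by -1.75 with siRNA-1 (SE 0.33, adjusted p = 0.000807) and -1.34 with siRNA-2 (SE 0.31, adjusted p = 0.00243), with libraries of 0.28 to 0.47 CPM with siRNA-1 and 0.37 to 0.57 CPM with siRNA-2, against 0.78 to 1.64 CPM with scramble. DERL2 changed by -0.48 with siRNA-1 and -0.36 with siRNA-2 and SELENOS by -0.41 with siRNA-1 and -0.41 with siRNA-2, all called. DERL1 was not called with either siRNA, at 0.04 with siRNA-1 and 0.17 with siRNA-2.

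Translocation and secretion genes fell in 5 of 7 cases with each siRNA. SEC24D, a cargo adaptor of the COPII coat, changed by -0.95 with siRNA-1 and -0.92 with siRNA-2, SEC11C, a catalytic subunit of signal peptidase, by -0.68 with siRNA-1 and -0.86 with siRNA-2, OSTC of the oligosaccharyltransferase by -0.50 with siRNA-1 and -0.63 with siRNA-2, SEC61A1, the channel subunit, by -0.48 with siRNA-1 and -0.31 with siRNA-2, and SSR1 by -0.30 with siRNA-1 and -0.28 with siRNA-2. SEC61B was not called, at -0.26 with siRNA-1 and -0.26 with siRNA-2, and SPCS3 was not called, at -0.09 with siRNA-1 and 0.04 with siRNA-2. SEC24D had 27.5, 28.6 and 31.0 CPM with siRNA-1 and 28.1, 28.6 and 32.2 CPM with siRNA-2, against 33.9, 78.6 and 54.9 CPM with scramble. Those groups did not overlap, while no gene of this branch was called against scramble library 1 alone.

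Among the regulators, XBP1 (chr22:28794555-28800597, minus strand) had 72.7, 73.2 and 74.6 CPM with siRNA-1 and 70.0, 74.4 and 85.0 CPM with siRNA-2, against 94.6, 152 and 128 CPM with scramble. It changed by -0.77 with siRNA-1 (SE 0.12, adjusted p = 9.77e-05) and -0.71 with siRNA-2 (SE 0.12, adjusted p = 9.32e-05), without overlap. Both calls were lost against scramble library 1 alone, at -0.36 with siRNA-1 (adjusted p = 0.146) and -0.32 with siRNA-2 (adjusted p = 0.133). CREB3L2, a membrane-bound transcription factor of the ATF6 kind, changed by -0.48 with siRNA-1 and -0.29 with siRNA-2, and WFS1, an ER membrane protein, fell by 0.57 with siRNA-1 and stood at -0.28 with siRNA-2, which was not called.

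Of the sensors, ATF6 and ERN1 were not called with either siRNA. ATF6 had 85.7, 88.8 and 88.8 CPM with siRNA-1 and 83.1, 81.6 and 80.9 CPM with siRNA-2, against 81.1, 91.9 and 85.1 CPM with scramble, and was at 0.03 with siRNA-1 (SE 0.07, adjusted p = 0.877) and -0.07 with siRNA-2 (SE 0.07, adjusted p = 0.553). ERN1 had 12.2, 12.1 and 11.4 CPM with siRNA-1 and 11.7, 13.3 and 11.7 CPM with siRNA-2, against 11.7, 12.6 and 12.9 CPM with scramble, and was at -0.06 with siRNA-1 (SE 0.08, adjusted p = 0.754) and -0.02 with siRNA-2 (SE 0.08, adjusted p = 0.891). In both genes each siRNA group overlapped scramble. All siRNA-1 libraries of ATF6 lay above all siRNA-2 libraries, a difference that was not called. EIF2AK3 had 32.9, 26.9 and 21.8 CPM with siRNA-1 and 33.3, 33.2 and 32.9 CPM with siRNA-2, against 27.1, 26.3 and 26.4 CPM with scramble. It was at 0.03 with siRNA-1 (SE 0.09, adjusted p = 0.902) and rose by 0.32 with siRNA-2 (SE 0.09, adjusted p = 0.0143), where the groups did not overlap. The siRNA-1 libraries of EIF2AK3 were spread over a wider range than those of the other 4 groups, and the rise with siRNA-2 was not called without the midpoint libraries (0.31, adjusted p = 0.244).

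**Figure D5:**
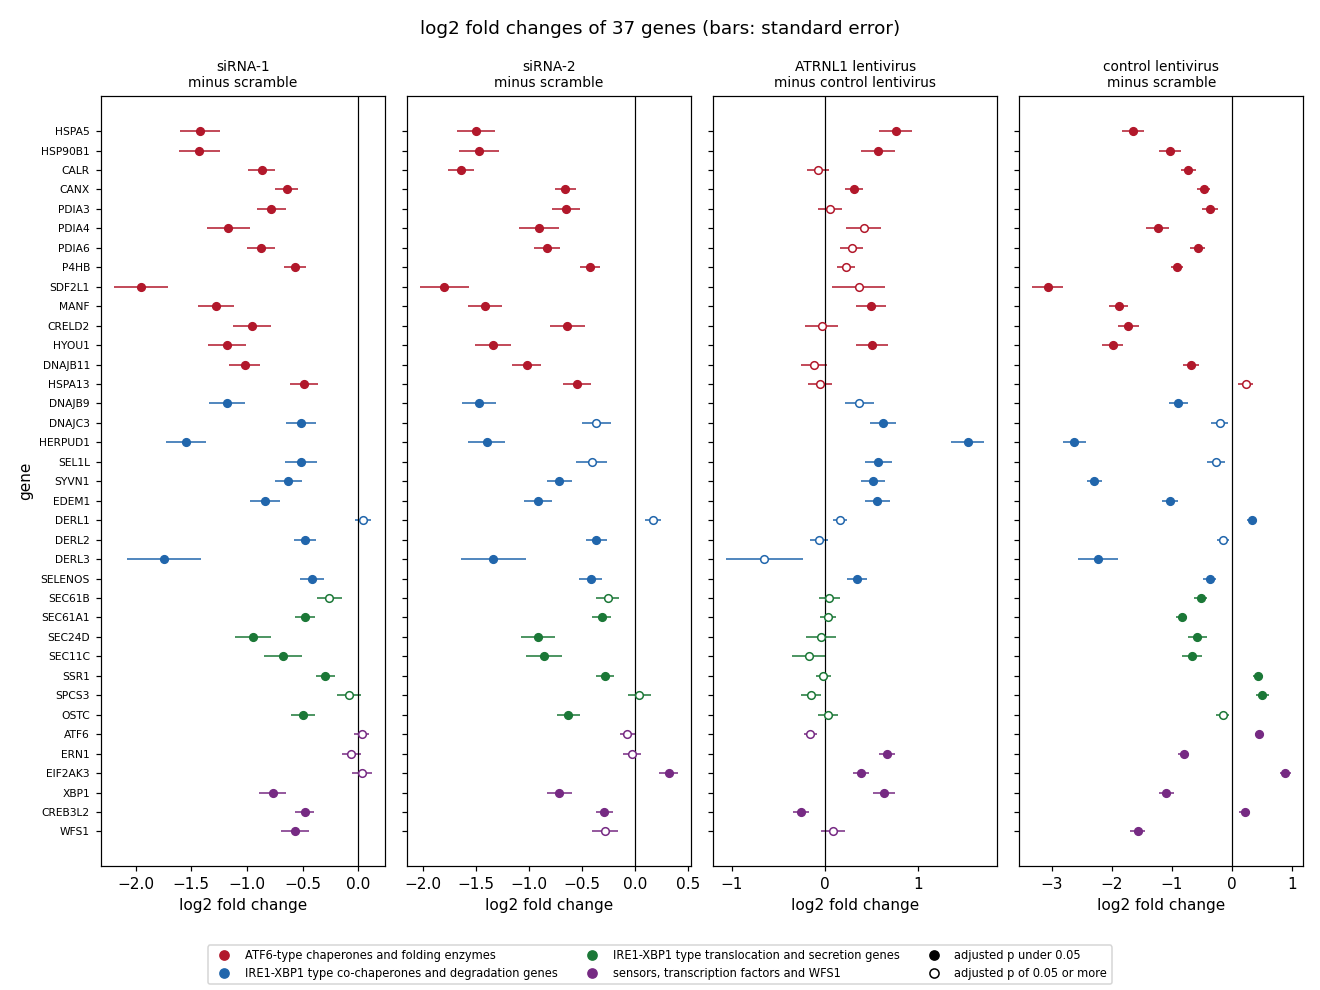
log2 fold change with its standard error for each of the 37 genes in 4 comparisons, coloured by branch, filled where the adjusted p is under 0.05. Filled points lie left of 0 for all 14 chaperones with both siRNAs, and right of 0 for 14 genes with the ATRNL1 lentivirus.

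Set directly against each other, the siRNAs differed in few of these genes. Between siRNA-1 and siRNA-2, 1 of the 37 genes was lower (4.53% of all genes tested) and 1 was higher (5.6%), with a median difference of -0.04. Of the 7258 genes with a mean of 20 CPM or more, 464 were lower and 961 higher. The libraries of the siRNAs did not overlap in 17 of the 37 genes, 11 of them lower and 6 higher with siRNA-1, against 33.9% of all genes tested. CALR was higher by 0.78 (SE 0.12, adjusted p = 9.06e-05), which held without the midpoint libraries at 0.77, and EIF2AK3 was lower by 0.29 (SE 0.09, adjusted p = 0.0451). The EIF2AK3 difference was not called with DESeq2 (-0.27, adjusted p = 0.0597), without the midpoint libraries (-0.28, adjusted p = 0.459) or without siRNA-1 library 3 (-0.14, adjusted p = 0.409). With the fit limited to these 2 groups, 10 genes were lower and 3 higher, against 10% and 11.9% of all genes tested. HSPA5 differed by 0.07 (SE 0.18, adjusted p = 0.865), HERPUD1 by -0.15 (SE 0.18, adjusted p = 0.699) and XBP1 by -0.06 (SE 0.12, adjusted p = 0.851), none of them called.

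The comparison of the ATRNL1 lentivirus with the control lentivirus asked how more of the short isoform changed the same genes. Of the 37 genes, 14 rose and 1 (CREB3L2) fell, against 19.1% of all genes tested that were higher and 18% that were lower. Calls were more frequent among the 7258 genes with a mean of 20 CPM or more, where 2293 were higher and 1875 lower. Most of the 37 genes (31) are at that level. The median log2 fold change was 0.23, against 0.00 over all genes tested. Co-chaperones and degradation genes rose in 6 of 10 cases, chaperones in 5 of 14, sensors and factors in 3 of 6 and translocation and secretion genes in 0 of 7. The groups did not overlap in 20 of the 37 genes, 19 of them higher with the ATRNL1 lentivirus (42.9% of all genes tested did not overlap in either direction). ERN1 and EIF2AK3 rose here and had not been called lower with either siRNA, and EIF2AK3 had been called higher with siRNA-2. DNAJC3 and SEL1L also rose here and had been called lower with siRNA-1 but not with siRNA-2.

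HERPUD1 changed most, with 67.7, 92.6 and 78.6 CPM with the ATRNL1 lentivirus, against 28.2, 27.3 and 26.8 CPM with the control lentivirus. It rose by 1.54 (SE 0.18, adjusted p = 1.90e-07), and the groups lay far apart. HSPA5 had 686, 1005 and 836 CPM with the ATRNL1 lentivirus, against 491, 498 and 503 CPM with the control lentivirus, and rose by 0.76 (SE 0.18, adjusted p = 0.00117). HSP90B1 rose by 0.57 (SE 0.18, adjusted p = 0.0152), a call lost with DESeq2 (0.59, adjusted p = 0.0601) and without ATRNL1 lentivirus library 2 (0.43, adjusted p = 0.116). The other chaperones that rose were HYOU1 at 0.51, MANF at 0.50 and CANX at 0.31, all 3 not called without library 2. SDF2L1, which fell most with the siRNAs, had 1.26, 1.80 and 1.69 CPM with the ATRNL1 lentivirus, against 1.10, 1.31 and 1.21 CPM with the control lentivirus, and was not called (0.36, SE 0.29, adjusted p = 0.353).

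DNAJC3 had 144, 200 and 151 CPM with the ATRNL1 lentivirus, against 107, 110 and 104 CPM with the control lentivirus, and rose by 0.63 (SE 0.14, adjusted p = 0.000624). SEL1L rose by 0.57 (SE 0.15, adjusted p = 0.00291) with 236, 321 and 261 CPM, against 183, 183 and 183 CPM with the control lentivirus. In both genes every ATRNL1 lentivirus library was above every control lentivirus library. EDEM1 rose by 0.56 (SE 0.13, adjusted p = 0.0014), SYVN1 by 0.52 and SELENOS by 0.34.

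All 3 regulators that rose were without overlap. ERN1 had 10.7, 11.8 and 11.5 CPM with the ATRNL1 lentivirus, against 6.65, 7.11 and 7.65 CPM with the control lentivirus, and rose by 0.67 (SE 0.09, adjusted p = 7.24e-07). XBP1 had 79.3, 108.9 and 87.2 CPM with the ATRNL1 lentivirus, against 61.4, 59.0 and 56.0 CPM with the control lentivirus, and rose by 0.64 (SE 0.12, adjusted p = 0.000115). EIF2AK3 had 63.3, 63.5 and 65.5 CPM with the ATRNL1 lentivirus, against 50.2, 49.7 and 47.2 CPM with the control lentivirus, and rose by 0.39 (SE 0.09, adjusted p = 0.00108). ATF6 stood at -0.15 (SE 0.07, adjusted p = 0.0813) and was not called, and CREB3L2 fell by 0.26 (SE 0.08, adjusted p = 0.0179).

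Within the ATRNL1 lentivirus group, library 2 was the highest for most of these genes, and without it 9 of the 37 were called higher and 3 lower, against 18.2% higher and 18.6% lower of all genes tested. Without the 5 midpoint libraries 6 genes rose (HERPUD1, HSPA5, DNAJC3, XBP1, ERN1 and EDEM1) and none fell, against 11.4% and 9.72% of all genes tested. The 12 cell cycle genes summed to 1739.7 to 1935 CPM with the ATRNL1 lentivirus and 3549.8 to 3849.6 CPM with the control lentivirus, and all 12 fell, with a median of -1.07. Their part in the changes of the 37 genes was not tested.

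The control lentivirus and scramble groups differ in the agent given, and the comparison shows how far apart the controls stood. Of the 37 genes 26 were lower with the control lentivirus and 6 were higher, while 33.2% of all genes tested were lower and 30.3% higher. Among the 7258 genes with a mean of 20 CPM or more, 2300 were lower and 3680 higher. The groups did not overlap in 27 of the 37, against 68.5% of all genes tested. The genes lower by the most were SDF2L1 at -3.06 (SE 0.26, adjusted p = 9.73e-11), HERPUD1 at -2.62 (SE 0.19, adjusted p = 4.10e-12), SYVN1 at -2.29 (SE 0.13, adjusted p = 3.25e-14), DERL3 at -2.23, HYOU1 at -1.98, MANF at -1.88, CRELD2 at -1.73 and HSPA5 at -1.65. EIF2AK3 was higher by 0.88 (SE 0.09, adjusted p = 3.76e-09), SPCS3 by 0.50, ATF6 by 0.45, SSR1 by 0.42, DERL1 by 0.33 and CREB3L2 by 0.21. Against scramble library 1 alone 16 were lower and 8 higher, against 24.2% and 21.2% of all genes tested, with SDF2L1 at -2.08 and HERPUD1 at -1.87. All 12 cell cycle genes were higher, with a median of 2.79, and scaling by library size alone moved the median of all genes tested to -0.26 from -0.06, so that CREB3L2 stood at 0.01 and DERL1 at 0.13 there. The agent and anything else that differed between these groups cannot be told apart.

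Other genes of the same pathways were followed in 5 lists, which were also chosen with earlier results of these data known. For scale, 3.76% of all genes tested were lower and 5.85% higher with siRNA-1, and 8.48% lower and 9.64% higher with siRNA-2. The shares were 18% lower and 19.1% higher with the ATRNL1 lentivirus. Of 24 other ER folding genes, 12 fell and 1 rose with siRNA-1, with a median of -0.30, and 14 fell and 2 rose with siRNA-2, with a median of -0.38. PDIA5, a disulfide isomerase, changed by -1.10 (adjusted p = 0.000569) and ERO1B, which reoxidises such enzymes, by -0.97 (adjusted p = 0.000356) with siRNA-1. Of 30 other translocation, glycosylation and ER export genes, 18 fell and 2 rose with siRNA-1 and 20 fell and 2 rose with siRNA-2. LMAN1, a cargo receptor for secreted glycoproteins, changed by -0.59 with siRNA-1 and -0.70 with siRNA-2. The 24 folding genes summed to 1194, 1553 and 1384 CPM in scramble libraries 1, 2 and 3. Their sums were 1106 to 1111 CPM with siRNA-1 and 1227 to 1277 CPM with siRNA-2. The 30 genes summed to 3289, 4289 and 3798 CPM in these scramble libraries. Theirs were 3201 to 3264 CPM with siRNA-1 and 2928 to 3035 CPM with siRNA-2. Of 17 other ER degradation genes, 3 fell and 0 rose with siRNA-1, and 5 fell and 1 rose with siRNA-2. With the ATRNL1 lentivirus the counts were 4 higher and 7 lower of the 24 folding genes, 8 higher and 2 lower of the 30, and 2 higher and 2 lower of the 17. Of 10 other regulators and proteases of the response, 1 fell and 1 rose with siRNA-1, 0 fell and 2 rose with siRNA-2, and 1 fell and 3 rose with the ATRNL1 lentivirus. Among the folding genes ERO1A, the other reoxidising enzyme, rose by 1.88 with the ATRNL1 lentivirus (SE 0.11, adjusted p = 8.23e-13).

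A list of 10 genes, ATF4 among them, stood for the PERK branch. Their levels do not show PERK activity, and other routes to these genes cannot be told apart from it here. With siRNA-1, 6 of 10 fell and 0 rose (median -0.38), and with siRNA-2, 7 fell and 1 rose (median -0.60). Over all genes tested 3.76% were lower with siRNA-1, 8.48% lower with siRNA-2 and 19.1% higher with the ATRNL1 lentivirus. CHAC1, a glutathione-degrading enzyme, changed by -1.97 with siRNA-1 (SE 0.17, adjusted p = 5.39e-08) and -2.09 with siRNA-2 (SE 0.17, adjusted p = 4.06e-09), and DDIT3, a transcription factor of prolonged stress, by -1.37 with siRNA-1 and -1.48 with siRNA-2. With the ATRNL1 lentivirus all 10 rose (median 1.18), led by NUPR1 at 3.13 (SE 0.27, adjusted p = 1.03e-09) and DDIT3 at 1.72 (SE 0.19, adjusted p = 7.12e-08). The summed level of the list was 337 to 385 CPM with the ATRNL1 lentivirus and 226 to 248.8 CPM with the control lentivirus. In the scramble libraries 1, 2 and 3 it was 320.4, 438 and 387 CPM, the same order as that of the 37 genes. It was 285 to 320.9 CPM with siRNA-1 and 277 to 331 CPM with siRNA-2, so both overlapped scramble library 1. As mean log2 CPM over the list, scramble library 1 stood at 3.73. The siRNA-1 libraries ran from 3.33 to 3.45 and the siRNA-2 libraries from 3.14 to 3.49, below it.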

How the data were processed

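Whole-number counts per gene were deposited by the authors as 1 table for 15 RNA sequencing libraries from H7-derived cells. The labels' extract protocol describes depletion of ribosomal RNA, whereas their molecule field reads polyA RNA. The submitters' processing notes name STAR 2.7.9a, DESeq2 1.30.1 and GRCh38, without their roles, while the counting program and strand setting are not given; overlapping and antisense genes may share reads. The columns give each library's group and not its sample. The 649 rows that name no gene (0.00157% to 0.00437% of counts) were left out. Counts were tested with edgeR 4.0.16 in R 4.3.3 (TMM scaling, filterByExpr, 1 mean per group over all 15 libraries, quasi-likelihood test, Benjamini-Hochberg adjustment over 24659 genes), and a gene was called at an adjusted p under 0.05. All fold changes, standard errors and adjusted p-values come from this test unless DESeq2 1.42.0 or another setting is named. CPM are TMM-scaled, log2 CPM use a prior count of 2, and TPM use GENCODE 29 exon lengths. The test was checked on simulated data. Other scalings, filters, DESeq2, limma 3.58.1 (voom), fits of 2 groups, each library left out, single scramble libraries as control and the removal of midpoint libraries were tried, the midpoint removal being chosen after seeing the data. Where 1 library stands for a group, it is assumed to vary like the other groups. The members and gene lists were chosen with earlier results of these data known. Full statistics were given for the 8 called members with the largest change in a comparison and for HSPA5, HERPUD1, XBP1, ATF6, ERN1 and EIF2AK3, and of each other list up to 2 called genes with the largest change were eligible to be named. DNAJC3, SEL1L, SEC24D, PDIA4 and CALR were given further values after theirs were seen.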

Additional observations from a re-analysis of the deposited data

Results flagged for a closer look

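In 2 of the 37 genes the effects of the siRNAs, each set against the same scramble libraries, differed by a direct test between siRNA-1 and siRNA-2 (edgeR's quasi-likelihood test). Over all genes tested 4.53% were lower and 5.6% higher with siRNA-1 than with siRNA-2. For CALR the siRNA-1 effect minus the siRNA-2 effect was 0.78 on the log2 scale (adjusted p = 9.06e-05), with all 3 siRNA-1 libraries above all 3 siRNA-2 libraries. For EIF2AK3 it was -0.29 (adjusted p = 0.0451), with all 3 siRNA-1 libraries below all 3 siRNA-2 libraries, although siRNA-1 library 1 at 32.9 CPM and siRNA-2 library 3 at 32.9 CPM were nearly equal. The EIF2AK3 call was lost with DESeq2, without the midpoint libraries and without siRNA-1 library 3. The cause of either difference was not tested.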

How the results depend on the processing

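With scramble library 1 as the sole control, 8 genes were lower with siRNA-1, 11 with siRNA-2 and 16 with the control lentivirus. Without the midpoint libraries 16 were lower with each siRNA, 0 higher with siRNA-2, 0 lower and 6 higher with the ATRNL1 lentivirus, and 0 lower with siRNA-1 than with siRNA-2. With siRNA-2, 2 genes were higher by library size alone, under a stricter filter and with voom, and 0 with any single scramble library. Genes lower with siRNA-1 than with siRNA-2 numbered 0 with DESeq2's size factors or test, 2 with voom, 3 by library size, 4 with no filter and 10 in the fit of those groups, and higher were 2 with no filter and 3 in that fit. With the ATRNL1 lentivirus 2 were lower by library size and under a stricter filter, and with the control lentivirus 2 were higher against scramble library 2. Leaving out 1 library gave 25 to 32 lower with siRNA-1, 22 to 32 lower and 0 to 1 higher with siRNA-2, 0 to 1 lower between siRNAs, and 0 to 3 lower and 9 to 17 higher with the ATRNL1 lentivirus (9 and 3 without its library 2). For scale, with all libraries 3.76% of all genes tested were lower with siRNA-1, and 8.48% were lower and 9.64% higher with siRNA-2. Between siRNA-1 and siRNA-2, 4.53% were lower and 5.6% higher. With the ATRNL1 lentivirus 18% were lower and 19.1% higher. With the control lentivirus against scramble 33.2% were lower and 30.3% higher. Shares under some of the other settings stand in the paragraphs above, and they moved too. The cause of these moves was not tested.

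Of 848 values of single genes, 808 kept their direction and side of the threshold, 24 lost their call, 3 gained one and 13 changed sign, none of these called. With siRNA-1, ATF6 stood at -0.0563 against scramble library 2 alone, ERN1 at 0.0291 against scramble library 1 alone, and EIF2AK3 at -0.132 to 0.182 with 1 library left out. With siRNA-2, against scramble library 1 alone, ATF6 stood at 0.0019 and ERN1 at 0.0566, and ERN1 at 0.0461 by library size and at -0.0864 to 0.00761 with 1 library left out. Between siRNA-1 and siRNA-2, with 1 library left out, XBP1 ran from -0.118 to 0.0343 and ERN1 from -0.0701 to 0.0240, with ERN1 at 0.0132 without the midpoint libraries. No paired analysis was possible because the columns carry a group and no number that pairs libraries. With 3 libraries a group, and low counts in DERL3, small differences were not detectable.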

Other observations

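Other genes of the ER lists moved in both directions. With siRNA-2, FKBP7, an ER prolyl isomerase, rose by 1.08 (SE 0.10, adjusted p = 5.75e-08), while MYDGF, an ER-resident secreted factor, fell by 1.08 (SE 0.15, adjusted p = 7.55e-06). MBTPS1, the protease that makes the first cut in ATF6, rose with both siRNAs, by 0.59 (SE 0.06, adjusted p = 9.61e-07) with siRNA-1, and for siRNA-2 the rise was 0.69 (SE 0.06, adjusted p = 2.97e-08). With the ATRNL1 lentivirus NUCB2, a calcium-binding protein, fell by 0.75 (SE 0.10, adjusted p = 7.18e-07), and CREB3L1, a membrane-bound transcription factor, rose by 1.35 (SE 0.21, adjusted p = 1.40e-05).

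SSR3, a subunit of the translocon-associated protein complex, fell by 0.91 with siRNA-2 (SE 0.08, adjusted p = 7.59e-09) and differed between siRNA-1 and siRNA-2 by 0.78 (SE 0.08, adjusted p = 1.99e-07).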
